A study of Mus musculus with 6 samples.

Results

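Heat shock protein genes and Hsf1, the gene of the transcription factor that switches on the heat shock response, were followed in mouse fetal liver erythroblasts treated with carbon dots or left untreated. The 10 genes were taken by symbol from the deposited tables, which list 17691 genes, and all 10 were present: Hsf1, Hspa1a, Hspa1b, Hspb1, Hspa8, Dnajb1, Hsph1, Hsp90aa1, Hsp90ab1 and Hspd1. Polyadenylated RNA was sequenced in 6 libraries of erythroblasts, the nucleated precursors of red cells, from C57BL/6J mice. In 3 libraries the cells had received carbon dots (CDs, nanometre-sized carbon particles made from the plant Codonopsis pilosula) at 1 ug/ml for 30 h, and in 3 they were cultured for 30 h without them. Both groups started from TER119-negative cells, TER119 being an antigen that marks more mature red cell precursors, and their medium held erythropoietin. The labels name no vehicle and no gestational age. They leave unsaid whether the 3 replicates are separate litters or cultures, so p-values here measure only the spread between these libraries, which may be technical.

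Heat shock proteins are chaperones that bind unfolded or unfinished proteins and help them to fold. Hsf1 protein rests in the cytosol bound to chaperones. When unfolded proteins draw these chaperones away, it forms trimers, enters the nucleus and binds heat shock elements, inverted repeats of the bases GAA, in front of its target genes. In erythroid cells the chaperones meet a large flow of globin and heme, and nuclear HSP70 protein is known from human erythroblasts to shield the erythroid factor GATA1 from cleavage by caspase-3.

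The libraries held 17695997 to 19992001 expected counts in the CDs group and 19896958 to 20066581 in the untreated group, and levels are given as CPM, the counts of a gene divided by the scaled library total. Deviations from the group means correlated across the groups at 0.91, 0.33 and 0.94 for replicate numbers 1 to 3, least for number 2. The numbers were taken to pair the libraries, although the labels state no pairing. Deviations within a group sum to 0, so likeness of the number 3 libraries alone can raise these values. They do not settle pairs 1 and 2. All 9 erythroid markers examined, among them Gata1, Klf1, Epor and Alas2, had counts in all 6 libraries. Their summed level was 69354, 71136 and 56020.0 CPM in CDs 1 to 3, against 71996, 70712 and 60460 CPM in untreated 1 to 3, lowest in number 3 of both groups. In edgeR without the replicate number, 0 of 12283 genes tested (0%) had an adjusted p under 0.05, and 127 (1.03%) had an unadjusted p under 0.05. The coefficient of variation common to all genes was 0.485 in this fit and 0.112 with the replicate number as a block. Errors without the block thus include the spread over replicate numbers, and a high adjusted p there does not show that the groups are alike. With the replicate number as a block edgeR called 5 genes, limma-voom with it 6, DESeq2 without it 14 and DESeq2 with it 1210. Of the members, 3 low-level genes, Hspa1a, Hspa1b and Hspb1, were higher with CDs in every numbered pair, as were 30.3% of all genes tested. The other 7 genes were more abundant, and their log2 fold changes without the block ran from -0.18 to -0.02.

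**Figure D1:**
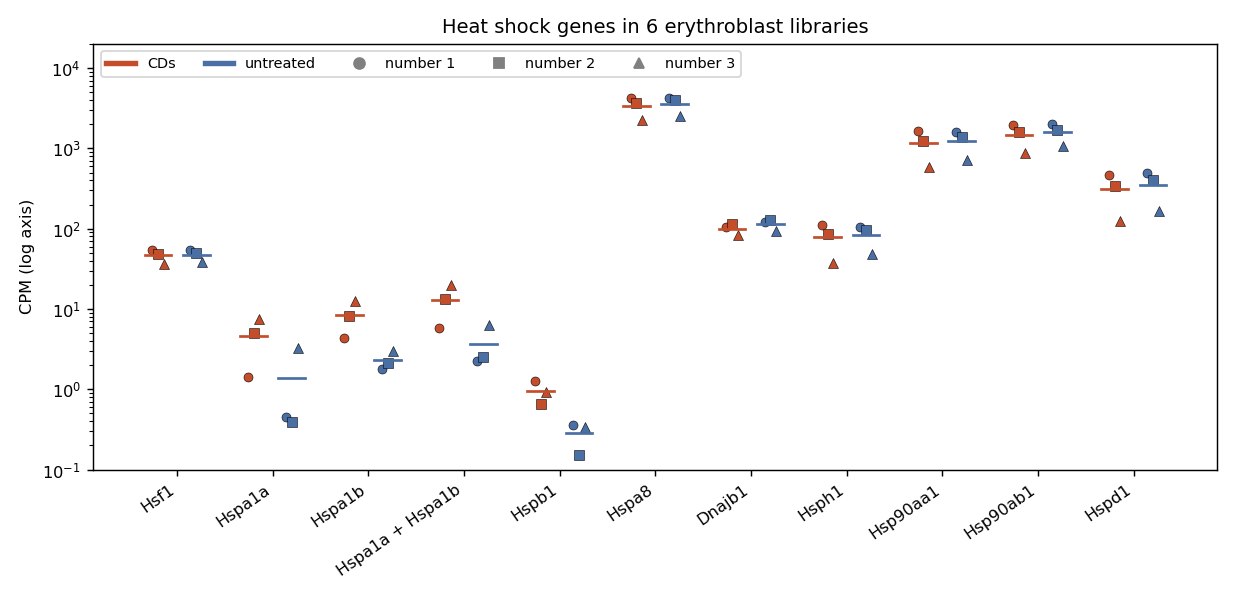
Level of each heat shock gene in each library, in CPM on a log axis, with CDs libraries left of untreated ones, replicate numbers as symbols and group means as bars. Hspa1b and Hspb1 had all 3 CDs libraries above all 3 untreated ones, as did 2.39% of all genes tested. Hspb1 passed the filter on low counts only through its CDs libraries. The 7 abundant genes overlapped and were lowest in number 3 of both groups, as were 40.8% of all genes tested.

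Hspa1a and Hspa1b encode the stress-inducible HSP70 of the cytosol, a protein nearly absent from resting cells and abundant after heat. They lie side by side on the minus strand of chromosome 17, at chr17:34969359-34972156 and chr17:34956429-34959238 (GRCm38.p6), with 10120 bases between them. Of the 50-base windows of the longest protein-coding Hspa1a transcript in GENCODE M21, 58.8% also occur in a transcript of Hspa1b, and of those of Hspa1b 62.3% occur in Hspa1a, so that 50-base reads can divide between the copies. The opposite-strand gene Gm20481 overlaps exons of Hspa1a, and since no step that marks strand is named its reads cannot be told apart. The 250 bases before each start (RefSeq, GRCm38.p6) are shown because they hold a match to part of the heat shock element, through which Hsf1 is known to act. They were equal at 247 of 250 positions. The windows are chr17:34972157-34972406 for Hspa1a and chr17:34959239-34959488 for Hspa1b, both on the minus strand. Capitals mark a heat shock element pair, GAANNTTC or TTCNNGAA, each of which reads the same on both strands.
Hspa1a: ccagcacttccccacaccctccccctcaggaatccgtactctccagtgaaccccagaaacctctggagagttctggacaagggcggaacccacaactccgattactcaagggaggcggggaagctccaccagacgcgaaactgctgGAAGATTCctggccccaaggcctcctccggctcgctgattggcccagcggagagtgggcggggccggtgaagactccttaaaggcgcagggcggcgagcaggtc
Hspa1b: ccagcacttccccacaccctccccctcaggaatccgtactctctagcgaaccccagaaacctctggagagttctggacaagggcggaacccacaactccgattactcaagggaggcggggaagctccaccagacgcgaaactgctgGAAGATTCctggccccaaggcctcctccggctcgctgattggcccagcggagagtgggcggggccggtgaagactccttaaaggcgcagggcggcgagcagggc

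Each window held 1 such pair, at positions -104 to -97 before the start, and no run of 3 alternating units (GAANNTTCNNGAA or its complement TTCNNGAANNTTC). A pair was found in 12.8% of the 32851 windows of 250 bases in the table, and a run of 3 units in 0.466%. A run of 3 units contains pairs and was counted under both. The match is a description of these letters. Other spacings of the element, units with a differing base and sequence beyond the windows were not searched, so a missing match does not show that no element is present.

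Hspa1a and Hspa1b summed had 5.76, 13.2 and 20.2 CPM in CDs 1 to 3, against 2.25, 2.50 and 6.28 CPM in untreated 1 to 3. Every CDs library lay above its numbered partner, but CDs 1 lay below untreated 3, so the groups overlapped. The sum averaged 13.05 ± 7.20 CPM with CDs and 3.68 ± 2.26 CPM untreated (SD, n = 3 each), a log2 fold change of 1.82 ± 0.63 (SE) that did not pass in edgeR without the block (adjusted p = 0.994, unadjusted p = 0.0309). Within pairs 1 to 3 the sum was 2.54-, 5.28- and 3.20-fold higher with CDs. The 95% counting intervals were 1.77 to 3.71, 3.88 to 7.31 and 2.62 to 3.93, which cover counting error only. With the block edgeR gave 1.82 ± 0.22 (adjusted p = 0.0912), and DESeq2 with the block passed it at 1.80 ± 0.30 (adjusted p = 8.75e-07). Across 19 alternatives the adjusted p for the sum ran from 4.03e-08 to 1.00, and it passed in 3, each with the block.

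Hspa1b alone had 4.35, 8.27 and 12.7 CPM with CDs, against 1.80, 2.11 and 3.03 CPM untreated. The lowest CDs library exceeded the highest untreated one, by CPM and by FPKM. Its log2 fold change was 1.87 ± 0.47, a 3.65-fold difference (edgeR adjusted p = 0.994, unadjusted p = 0.00848). Among all genes tested the groups stood apart in this direction in 2.39% and in the lower direction in 2.34%. Hspa1a had 1.41, 4.96 and 7.48 CPM with CDs, against 0.453, 0.393 and 3.25 CPM untreated. Here untreated 3 stood above CDs 1, and the log2 fold change of 1.74 ± 1.05 carried the widest error of the 10 genes. Without untreated 3 it was 3.41, and it ranged from 1.21 to 3.41 when 1 library was left out. DESeq2 with the block called Hspa1a (adjusted p = 0.00660) and Hspa1b (adjusted p = 1.54e-05). In that fit 7.76% of all genes were called higher.

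The division of counts between the copies differed between libraries. Hspa1a held 24.5%, 37.5% and 37.1% of the summed counts in CDs 1 to 3, against 20.1%, 15.7% and 51.7% in untreated 1 to 3. The share was highest in untreated 3, where the exact 95% interval on rounded counts, which covers counting error only, ran from 43.0 to 60.8%. It overlapped the interval of CDs 2 (31.8 to 43.8%) and lay above those of the other 4 libraries. The groups averaged 33.05% ± 7.38 with CDs and 29.2% ± 19.6 untreated (SD, n = 3 each), a difference of 3.86 percentage points (exact two-sided permutation p = 0.8, adjusted over 2 ratios 0.9, smallest possible p of 0.1). Summing the copies removes the division between them, but reads shared with Gm20481, Gm10501 and Hspa1l still depend on how they were assigned.

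Hspb1 encodes the small heat shock protein HSP25, which holds unfolded proteins in solution and binds actin filaments. It lies at chr5:135887919-135889563, and its 250 bases before the start (chr5:135887669-135887918, plus strand) are shown because they hold 2 element pairs, at -117 to -110 and -97 to -90, in capitals.
Hspb1: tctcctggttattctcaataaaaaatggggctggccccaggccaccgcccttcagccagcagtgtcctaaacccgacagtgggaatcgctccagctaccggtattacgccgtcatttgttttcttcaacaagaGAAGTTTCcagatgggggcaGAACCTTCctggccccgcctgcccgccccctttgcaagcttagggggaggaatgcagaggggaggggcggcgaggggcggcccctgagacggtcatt
The gene was close to the lower limit of these data, with 22, 13 and 19 counts in CDs 1 to 3, against 7, 3 and 7 in untreated 1 to 3. This corresponds to 1.26, 0.654 and 0.916 CPM with CDs, against 0.362, 0.153 and 0.342 CPM untreated. The groups did not overlap, as for 2.39% of all genes tested in the higher direction. Unlike the HSP70 pair, Hspb1 was not highest in number 3. Its log2 fold change was 1.72 ± 0.45, a 3.29-fold difference (edgeR adjusted p = 0.994, unadjusted p = 0.0105). The pairs gave 3.48-, 4.26- and 2.68-fold, with counting intervals of 1.44 to 9.65, 1.17 to 23.3 and 1.08 to 7.54. With the block edgeR gave an adjusted p of 0.0916, and DESeq2 with the block gave Hspb1 no adjusted p. Hspb1 passed the filter on low counts only through its CDs libraries, so its presence among tested genes already required them to be high, and Hspa1a passed through its CDs libraries and untreated 3. Of its 50-base windows 51.6% also occur in the pseudogene Hsp25-ps1.

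**Figure D2:**
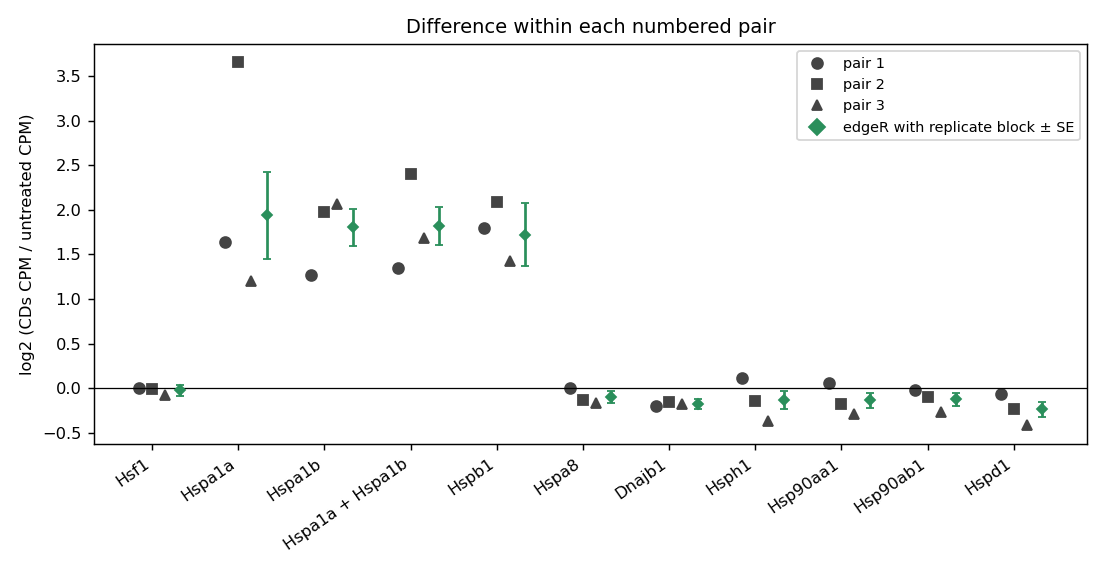
Log2 ratio of CDs to untreated CPM within each numbered pair (dark symbols) and the edgeR estimate with the replicate block ± SE (green). Hspa1a, Hspa1b, their sum and Hspb1 lay between 1.202 and 3.66 in all 3 pairs, and the other genes between -0.42 and 0.11.

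Hspa8 encodes HSC70, the constitutive HSP70, which folds new proteins and strips clathrin from vesicles (chr9:40801276-40805202). It had 4223, 3645 and 2254 CPM in CDs 1 to 3, against 4209.7, 3988 and 2529 CPM in untreated 1 to 3. The number 3 libraries were low in both groups, and the partners lay within 0.17 on the log2 scale. The log2 fold change was -0.08 ± 0.32 (edgeR adjusted p = 0.994). Inducible HSP70 was a small part of all HSP70 counts: of 10000 counts of Hspa1a, Hspa1b and Hspa8, the inducible pair held 13.6, 36.2 and 88.7 in CDs 1 to 3, against 5.35, 6.27 and 24.8 in untreated 1 to 3. Of the Hspa8 windows 70.0% also occur in the pseudogene Gm15459, so its level depends on how such reads were assigned.

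Dnajb1 encodes the HSP40 that delivers clients to HSP70 and starts its ATPase (chr8:83608175-83612653). It had 105, 114 and 82.4 CPM with CDs, against 119.8, 127 and 92.8 CPM untreated. Each CDs library lay below its partner by a like amount, -0.19, -0.16 and -0.17 on the log2 scale, while the groups overlapped. Its log2 fold change was -0.17 ± 0.19 (edgeR adjusted p = 0.994, and 0.119 with the block). Hsph1 encodes HSP110, which frees HSP70 from ADP (chr5:149616843-149636498). It had 113, 86.5 and 37.6 CPM with CDs, against 104, 95.8 and 48.5 CPM untreated, higher with CDs in pair 1 and lower in pairs 2 and 3. Its log2 fold change was -0.07 ± 0.49 (edgeR adjusted p = 0.994). The windows before both Dnajb1 starts held no exact match to an element pair. Those before both Hsph1 starts held the same pair, within chr5:149636356-149636375 on the minus strand and shown as the one match among the HSP70 partners.
Hsph1: gaatctTTCTCGAAggctcg

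The HSP90 genes encode the chaperones of kinases and steroid receptors, Hsp90aa1 the more inducible form (chr12:110691036-110696395) and Hsp90ab1 the more constitutive one (chr17:45567778-45573261). Hsp90aa1 had 1652, 1243 and 593 CPM in CDs 1 to 3, against 1588, 1402 and 723 CPM in untreated 1 to 3. Hsp90ab1 had 1968, 1596 and 889 CPM with CDs, against 1989, 1711 and 1067 CPM untreated. Both were lowest in number 3 of each group, and the groups overlapped, with log2 fold changes of -0.09 ± 0.47 and -0.10 ± 0.38 (edgeR adjusted p = 0.994 for each). The ratio of Hsp90aa1 to Hsp90ab1 counts was 0.839, 0.779 and 0.667 in CDs 1 to 3, against 0.798, 0.819 and 0.678 in untreated 1 to 3. On the log2 scale the mean ratio was -0.40 ± 0.17 with CDs and -0.39 ± 0.15 untreated (SD, n = 3 each), a difference of -0.01 (exact two-sided permutation p = 0.9, adjusted over 2 ratios 0.9). Of the Hsp90aa1 windows 51.5% also occur in the pseudogene Gm12346, against 1.70% for Hsp90ab1 and its leading match Gm6368.

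Hspd1 encodes HSP60, the chaperonin of the mitochondrial matrix, and lies head to head with Hspe1, the gene of its partner HSP10, on chromosome 1 (Hspd1 at chr1:55077833-55088243). Annotated exons of both genes overlap on opposite strands, so some reads cannot be told apart. Of 2 windows for Hspd1, the one before the downstream start held 2 overlapping runs of 3 units, within chr1:55088053-55088082 on the minus strand. This stretch lies inside the span of Hspd1 and also before the start of Hspe1 (chr1:55088148-55091317). The window before the upstream Hspd1 start (chr1:55088244-55088493) held no run and no pair. The stretch is shown because its window is the only one with such a run among those of the 6 members searched. Hsf1, Hspa8, Hsp90aa1 and Hsp90ab1 were not searched.
Hspd1: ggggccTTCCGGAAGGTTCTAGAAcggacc
Hspd1 had 469, 345 and 123.5 CPM in CDs 1 to 3, against 491, 404 and 165 CPM in untreated 1 to 3. It varied most with the replicate number among the 7 abundant genes, number 3 holding 0.303 of the mean of numbers 1 and 2 with CDs and 0.368 untreated. CDs lay below untreated in all 3 pairs (-0.06, -0.23 and -0.42, log2), with a log2 fold change of -0.18 ± 0.61 (edgeR adjusted p = 0.994). Hspe1 had 134, 117 and 50.1 CPM with CDs, against 169, 142 and 72.1 CPM untreated, also lower in 3 of 3 pairs. Its log2 fold change was -0.35 ± 0.48 (edgeR adjusted p = 0.994). DESeq2 with the block called Hspe1 (-0.39, adjusted p = 0.00759) and not Hspd1 (-0.25, adjusted p = 0.142).

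Hsf1 itself (chr15:76477362-76501155) was the member closest between the groups. It had 54.3, 49.0 and 36.3 CPM in CDs 1 to 3, against 54.1, 49.3 and 38.2 CPM in untreated 1 to 3. Partners lay within 0.08 of each other on the log2 scale. The log2 fold change was -0.02 ± 0.21 (edgeR adjusted p = 0.995), and Hsf1 passed in none of the 19 alternatives. These values are RNA levels, and the activity of the factor, which is set by its trimer and its modifications, was not measured. RefSeq promoter windows for Hsf1, Hspa8, Hsp90aa1 and Hsp90ab1 were not used here.

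Per length of gene, by the authors' FPKM, Hspa8 ranked first at a mean of 1631 over the 6 libraries, followed by Hsp90ab1 (603), Hsp90aa1 (413), Hspd1 (139), Dnajb1 (34.96), Hsph1 (23.7), Hsf1 (22.9), Hspa1b (1.92), Hspa1a (1.08) and Hspb1 (0.695). The ranges over libraries did not overlap between Hspa8 and Hsp90ab1, Hsp90aa1 and Hspd1, Hspd1 and Dnajb1, or Hsf1 and Hspa1b. They overlapped for the other neighbours. The order still held within all 6 libraries for the HSP90 pair and for Dnajb1 above Hsph1, in 5 for Hspa1b above Hspa1a, in 4 for Hsph1 above Hsf1 and in 3 for Hspa1a above Hspb1. The 10 genes together took 0.848%, 0.705% and 0.421% of all counts in CDs 1 to 3, against 0.832%, 0.764% and 0.476% in untreated 1 to 3.

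All 7 were lowest in number 3 of both groups, as were 40.8% of all genes tested, and Hspa1a and Hspa1b were highest there in both groups, as were 41% of all genes. Number 3 held 0.303 (Hspd1) to 0.752 (Dnajb1) of the mean of numbers 1 and 2 with CDs, and 0.368 to 0.751 of it untreated. The 7 had log2 fold changes of -0.18 to -0.02 with a median of -0.09, beside a median of 0.01 over all genes tested. Of the 10 members, 3 were higher with CDs in all 3 pairs (30.3% of all genes) and 3, namely Dnajb1, Hsp90ab1 and Hspd1, were lower in all 3 (26.2% of all genes). By FPKM Hsp90ab1 was higher with CDs in pair 1 by 0.01 on the log2 scale, so that 2 were lower in all 3. Of the 7, 0 had an unadjusted p under 0.05 in edgeR without the block, while Hspa1b and Hspb1 had one, as did 0.708% of all genes in the higher direction (0.326% in the lower). The place of Hspb1 in these counts was fixed in part by the filter on low counts, which it passed only through its CDs libraries.

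With the replicate block edgeR called 0 of the 10 members at an adjusted p of 0.05, where 0.0244% of all genes were called higher and 0.0163% lower. At an adjusted p under 0.10 Hspa1b and Hspb1 passed, as did 5.17% of all genes in the higher direction, and 0 members passed in the lower direction, where 3.13% of all genes did. Since Hspb1 entered the genes tested through its CDs libraries alone, its calls and its place in these counts were fixed in part by the filter. An unadjusted p under 0.05 in that fit was reached by Hspa1a, Hspa1b and Hspb1 in the higher direction (18% of all genes) and by Dnajb1 and Hspd1 in the lower direction (11.9% of all genes). A log2 fold change above 1 without the block was seen for Hspa1a, Hspa1b and Hspb1, beside 1.46% of all genes, and one below -1 for 0 members, beside 0.22% of all genes.

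Other chaperone genes, taken from lists of the same pathway, showed no call in edgeR without the block. Of 80 listed genes 79 were in the tables and 73 were tested, and 0 passed (1 of the 73 had an unadjusted p under 0.05, Serpinh1). DESeq2 with the block called 3 of them, all lower (2.09% of all genes were called lower in that fit). The 73 genes had a median log2 fold change of -0.12 without the block, with 23 values above 0 and 50 below (48.1% of all genes lay below). In all 3 pairs 42 were lower with CDs and 10 were higher (26.2% and 30.3% of all genes). In edgeR with the block 24 had an unadjusted p under 0.05 in the lower direction and 3 in the higher (11.9% and 18% of all genes). At an adjusted p under 0.10 in that fit 5 passed lower and 1 higher (3.13% and 5.17% of all genes), and 0 passed at 0.05. Ahsp, the alpha globin chaperone, was not analysed here.

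Among the cofactors of HSP70, Bag3, the exchange factor that Hsf1 is known to induce together with HSP70, had 29.5, 29.9 and 30.4 CPM in CDs 1 to 3, against 29.45, 29.8 and 30.3 CPM in untreated 1 to 3. Its level was nearly constant across all 6 libraries, with a log2 fold change of 0.00 ± 0.10. The co-chaperone genes Dnaja1 (-0.04 ± 0.21), Bag1 (-0.12 ± 0.17) and Hspbp1 (-0.29 ± 0.39), and the HSP110 genes Hspa4 (0.01 ± 0.21) and Hspa4l (0.06 ± 0.26), had edgeR adjusted p-values of 0.994 or above. Hspa13, a microsomal HSP70, had 18.8, 21.0 and 25.4 CPM with CDs, against 12.4, 15.7 and 20.2 CPM untreated, higher in all 3 pairs (0.43 ± 0.23). Hspa2, the testis-enriched HSP70, had -0.14 ± 0.21. Hspa1l, the neighbour of Hspa1a, had 3.77, 2.83 and 1.58 CPM with CDs, against 2.91, 2.82 and 1.92 CPM untreated, and was named after its values were seen because it shares windows with the inducible pair.

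Of 13 DNAJ genes tested 7 had values below 0, with Dnajc8 at -0.27 ± 0.18 and Dnajc7 at -0.13 ± 0.10. Of 16 HSP90 co-chaperones 11 lay below 0, among them Pih1d1 (-0.14 ± 0.16) and Sugt1 (-0.09 ± 0.10), beside 48.1% of all genes below 0. The groups of Sugt1 did not overlap by CPM or FPKM and those of Dnajc7 by CPM alone, as was the case by CPM for 2.34% of all genes in the lower direction. Of 4 tested genes of the small heat shock list 1 lay below 0. Hspb6 had -0.32 ± 0.18, and Serpinh1, a collagen chaperone gene listed with them, had 2.92, 2.36 and 2.31 CPM with CDs, against 1.395, 0.819 and 1.76 CPM untreated (0.93 ± 0.35, no overlap, as for 2.39% of all genes in the higher direction, unadjusted p = 0.0389 in edgeR). The other HSF genes were low, Hsf2 at 4.12, 5.74 and 10.1 CPM with CDs, against 3.93, 3.89 and 6.35 CPM untreated (0.49 ± 0.42). Hsbp1, whose product binds HSF1 trimers, had 0.09 ± 0.24.

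All 10 mitochondrial chaperone and protease genes tested and all 14 genes of the cytosolic chaperonin TRiC and its partner prefoldin had values below 0, with medians of -0.21 and -0.17. In the same fit 48.1% of all genes lay below 0. Hspa9, the mitochondrial HSP70, had -0.23 ± 0.28, the matrix protease Lonp1 -0.28 ± 0.31 and the disaggregase Clpb -0.24 ± 0.25. Pfdn1 and Pfdn6, subunits of prefoldin, had -0.28 ± 0.25 and -0.27 ± 0.24. These values are without the block. In edgeR with the block 7 of the 10 and 9 of the 14 had an unadjusted p under 0.05 in the lower direction, as did 11.9% of all genes. In number 3 of both groups 10 of the 10 and 13 of the 14 genes were at their lowest. Gata1, the erythroid factor that HSP70 protects, had 528, 440.5 and 249.1 CPM with CDs, against 528, 513 and 339 CPM untreated (-0.18 ± 0.34).

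**Figure D3:**
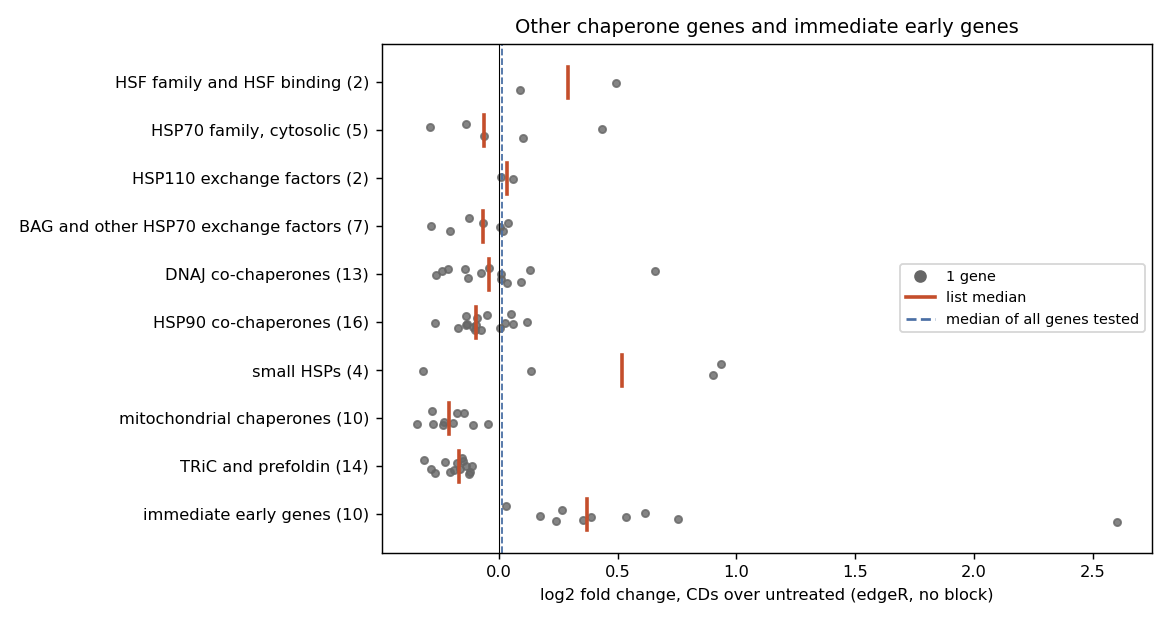
Log2 fold change of CDs over untreated in edgeR without the block for each tested gene (points) of the chaperone lists and of the immediate early genes, with list medians (red) and the median of all genes tested (dashed). Mitochondrial chaperones and TRiC with prefoldin lay below 0 in every gene, with medians of -0.21 and -0.17, and immediate early genes lay above 0, with a median of 0.37. Of the 12283 genes tested 5911 lay below 0 and 6372 above.

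Summed markers of some other cell types were also higher with CDs. Macrophage markers (14 of 14 in the tables, 12 with counts in all 6 libraries, 0 listed at 0 throughout) summed to 343, 1397 and 4350.0 CPM in CDs 1 to 3, against 151, 442 and 3519 CPM in untreated 1 to 3. They were higher with CDs by 1.19, 1.66 and 0.31 on the log2 scale in pairs 1 to 3, beside 1.35, 2.40 and 1.68 for the Hspa1a and Hspa1b sum. Of 11 macrophage markers tested, 9 were higher with CDs in all 3 pairs (30.3% of all genes). Cd5l went the other way, at -1.15, -1.75 and -0.56 in pairs 1 to 3 (26.2% of all genes were lower in all 3). Lyz2 held 32.2 to 54.1% of the macrophage sums and differed by -0.03 in pair 3. Endothelial markers (7 of 7 in the tables, 6 with counts in all 6 libraries) summed to 486, 420 and 335 CPM with CDs, against 164, 155 and 198 CPM untreated. Flt1 alone held 67.2 to 97.3% of these sums, and the other 6 genes summed to 13.2, 29.0 and 82.3 CPM with CDs, against 6.61, 11.1 and 65.0 CPM untreated. Granulocyte markers (9 of 9, all with counts in all 6) summed to 380, 1273 and 2130.1 CPM with CDs, against 269, 841 and 2065 CPM untreated. Untreated 3 held more macrophage marker RNA than CDs 1 and CDs 2, while its Hspa1a and Hspa1b sum of 6.28 CPM lay between theirs, at 5.76 CPM in CDs 1 and 13.2 CPM in CDs 2.

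Megakaryocyte markers (7 of 7, all with counts throughout) summed to 101 to 134 CPM with CDs, against 83.1 to 102 CPM untreated. Their sums differed by 0.61, 0.54 and -0.01 on the log2 scale in pairs 1 to 3. Hepatocyte markers (6 of 6, all with counts throughout) summed to 236 to 436 CPM with CDs, against 162 to 338 CPM untreated. Mast cell and basophil markers (6 of 6, 4 with counts throughout) summed to 43.9 to 137 CPM with CDs, against 32.2 to 213 CPM untreated. These sums were higher with CDs in pairs 1 and 2 and lower in pair 3 (0.45, 0.43 and -0.64, log2). B cell markers (5 of 5, 1 with counts throughout) summed to 59.9 to 77.4 CPM with CDs, against 57.9 to 71.8 CPM untreated, of which Cd79b held 97.5 to 99.9%. Immediate early genes, which respond to handling as well as to growth signals, summed to 1487, 1827 and 3098 CPM in CDs 1 to 3, against 1240.3, 1237 and 2219 CPM in untreated 1 to 3. All 10 of them had values above 0 in edgeR without the block, led by Egr1 at 2.60, beside 6372 of the 12283 genes tested. The part of these cells and genes in the higher Hspa1a, Hspa1b and Hspb1 levels was not tested, and in bulk RNA a change in the number of cells of a type cannot be told from a change in RNA per cell.

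**Figure D4:**
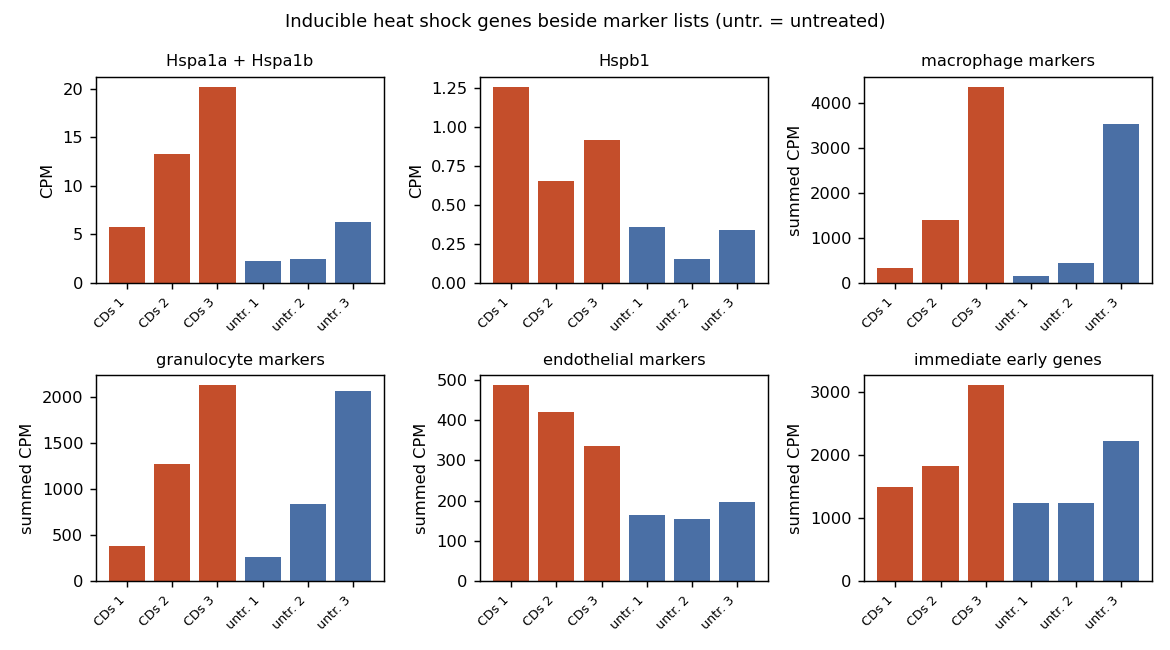
Level of the Hspa1a and Hspa1b sum and of Hspb1 (CPM) beside the summed CPM of 3 marker lists and the immediate early genes, with bars for the 6 libraries and CDs left of untreated. The sum and the macrophage markers were highest in number 3 within each group, at 20.2 and 4350.0 CPM in CDs 3 and 6.28 and 3519 CPM in untreated 3, whereas Hspb1 was highest in number 1, at 1.26 CPM in CDs 1 and 0.362 CPM in untreated 1.

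Over the 6 libraries the genes whose log2 CPM most resembled the Hspa1a and Hspa1b sum, among 8183 genes with a mean of at least 10 CPM, were Dbi (Pearson r = 0.993), Gpbp1l1 (0.975), Galnt1 (0.967), Engase (0.964) and Mkrn1 (0.961). Dbi, the gene of the acyl-CoA binding protein, had 31.5, 42.3 and 45.3 CPM in CDs 1 to 3, against 21.4, 21.8 and 29.9 CPM in untreated 1 to 3. Genes most like Hsf1 were Gcsh (0.999), Ankrd10 (0.999), Cdv3 (0.999), Pdik1l (0.999) and Dlat (0.999). These correlations describe 6 libraries that share a strong gradient over replicate numbers, and are no test. Among the members, Hsf1, Hspa8, Hsp90aa1, Hsp90ab1, Hsph1 and Hspd1 correlated with each other at 0.99 or above, and Hspa1a with Hspa1b at 0.89.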

How the data were processed

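The authors deposited expected counts per gene for 6 libraries (30.1% of values not whole) and a second table whose unit, FPKM, was worked out from the values, since count over FPKM and library total came to about the same length across libraries for most genes. Per the submitters' processing notes the tools were HISAT2 2.0.4, Bowtie2 2.2.5, RSEM 1.2.12 and DESeq2 1.4.5 with build GRCm38.p6, in no stated role or order. For the 10 genes counts and FPKM matched, with RMS log2 deviations of 0.00102 to 0.0195, against 0.0866 to 0.0998 when totals were exchanged within numbers.

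After rounding, filterByExpr kept 12283 genes (99.9% of counts). The test was the robust quasi-likelihood test of edgeR 4.0.16 (R 4.3.3) with TMM factors and a group term alone. Benjamini-Hochberg adjustment ran over all genes tested, at 0.05. For the sum, the 2 rows were replaced by their total and the table was fitted again. DESeq2 1.42.0, limma 3.58.1, other scaling, filters, tables and left-out libraries were alternatives, and leaving out pairs under the block was added after seeing the data. Fits were tested on simulated data. FPKM served for levels per length.

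Replicate numbers in the labels were taken to pair libraries. The ground was that deviations from group means correlated at 0.91, 0.33 and 0.94 for numbers 1 to 3, above the limit of 0.1. Deviations within a group sum to 0, so likeness of the number 3 libraries alone can raise all of these values. Correlations between unlike numbers were not set beside them, so they do not settle pairs 1 and 2. Libraries of a group differed beyond sampling noise (smallest chi-square per degree of freedom 11.2). The members and lists were chosen with earlier results of these data known. Named genes were the members, the fixed genes Hspe1, Hspa9, Hspa4, Dnaja1, Bag1, Bag3, Ahsp and Gata1, up to 2 per chaperone list with the smallest unadjusted p, and 5 each most correlated with the summed pair and with Hsf1. Promoter sequences came from RefSeq (GRCm38.p6) for 6 of 10 members.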

Additional observations from a re-analysis of the deposited data

How the results depend on the processing

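Hspa1a, Hspa1b and Hspb1 kept positive log2 fold changes in all 19 alternatives run, Hspa1a between 0.81 (FPKM with a pseudocount of 1) and 3.41 (without untreated 3). Hspb1 passed the filter on low counts only through its CDs libraries. Its sign and its calls in settings that kept this filter were thus fixed in part by it and are no support. The sum of Hspa1a and Hspa1b lay between 1.24 (FPKM with a pseudocount of 1) and 2.45 (without untreated 3). With the replicate block alone edgeR gave the sum 1.82 (adjusted p = 0.0912). The sum passed with DESeq2 and the replicate block (1.80) and, with the block, without both libraries numbered 2 (1.55) or 3 (1.90). Its log2 fold change ranged from 1.36 to 2.45 when 1 library was left out. Leaving out pairs under the block was chosen after seeing the data. Members past an adjusted p of 0.05 numbered 0 in edgeR with or without the block, 2 in DESeq2 with the block, and 3 in the block fits without number 2 or number 3. Chaperone list genes passing numbered 3, 8 and 6 of 73 tested in these 3 fits. Over all 12283 genes tested the same fits called 1210, 1394 and 1707. In DESeq2 with the block 7.76% of all genes were called higher and 2.09% lower. Over all genes DESeq2 called 14, the block fits 5 (edgeR), 6 (limma-voom) and 1210 (DESeq2), and those without number 2 or 3 called 1394 and 1707. The cause of these differences was not tested. With 1 library left out, 0 genes passed in any fit. The Hspa1a share then differed by -2.87 to 15.1 percentage points and the HSP90 log2 ratio by -0.093 to 0.085. Near-zero values turned sign when 1 library was left out: Hsf1 (-0.15 to 0.13), Hspa8 (-0.28 to 0.14), Hsp90aa1 (-0.43 to 0.23), Hsp90ab1 (-0.35 to 0.17), Hsph1 (-0.42 to 0.27), Hspd1 (-0.59 to 0.20), Dnaja1 (-0.18 to 0.11), Gata1 (-0.42 to 0.075), Hsbp1 (-0.12 to 0.25), Hspa4l (-0.16 to 0.24), Hspa4 (-0.13 to 0.16) and Bag3 (-0.0074 to 0.014). Hspa4 also turned with DESeq2 (-0.0084), DESeq2 with the block (-0.017), RLE size factors (-0.0084), no filter (-0.0039), and the block without number 1 (-0.030) or 2 (-0.036). Bag3 turned with DESeq2 (-0.0135), DESeq2 with the block (-0.0137), RLE (-0.0136), no filter (-0.0103), the block without number 2 (-0.0155) or 3 (-0.0217) and without both numbered 3 (-0.0218). Hsbp1 turned in the block without number 2 (-0.053) and Hspa4l without number 1 (-0.051). Sampling of 3 to 22 counts limits Hspb1.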
